A study of Mus musculus with 4 samples.

Results

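Accessible sites that fall in mammalian-wide interspersed repeats (MIR) and in LINE-2 elements (L2) were examined in melb-a cells, a mouse line of melanoblasts, the embryonic precursors of pigment cells. The members were chosen by name alone: a peak belonged to the MIR family where its detailed annotation read SINE and MIR, and to the L2 family where it read LINE and L2. Of 70436 peaks in the deposited table, 408 lay in MIR and 325 in L2, together 733 or 1.04% of all peaks, and no peak was in both families. The assay was ATAC-seq: a transposase cuts open chromatin and tags the cut ends with adapters, so that tag counts follow accessibility. All 4 libraries came from genotypically wild-type melb-a cells that had been infected with lentivirus and selected with puromycin. In the Hira shRNA group, hairpin I and hairpin II each target Hira, the gene of a histone chaperone that loads H3.3 outside replication, and each had 1 library. In the control shRNA group, control 1 carried a hairpin against luciferase and control 2 a scrambled hairpin, again with 1 library each. The study asked how lowering Hira changed accessibility.

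MIR and L2 are old transposable elements that spread before the main groups of mammals diverged and no longer move in the mouse. MIR elements are short, derive from a tRNA, and share their 3′ end with L2, whose enzymes are thought to have copied them. Their copies have drifted apart in sequence, unlike the younger rodent SINEs and L1 elements, and some copies are known to have become enhancers.

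The tags in peaks numbered 14718721 under hairpin I and 8910983 under hairpin II, against 20716859.5 in control 1 and 15804532 in control 2. Controls 1 and 2 differed from each other by no more than the sampling noise of whole tags, and were counted as 1 sample. Chi-square per peak was 0.933 over all peaks and 0.920 over MIR and L2 peaks. Tags come in steps of 0.5, for which sampling alone may give a value under 1. The controls carry different hairpins by their labels but may hold reads of 1 library. A value given for each of them is therefore not a pair of independent measurements. The same statistic between the Hira libraries was 6.24 over all peaks and 8.42 over MIR and L2 peaks. The control sample therefore has no spread of its own, and p-values measure only the spread between the 2 hairpin libraries, which may be technical. Of 11 markers of the melanocyte lineage, 8 had a peak within 1 kb of a transcription start site (TSS), with summed levels of 259 and 263.7 CPM under hairpins I and II, against 273.4 in the control, and Ednrb, Mlana and Pmel had none. None of 7 keratinocyte markers had such a peak. At the other marker lists, summed CPM under hairpins I and II and in the control was 80.3, 70.2 and 60.8 for fibroblasts (3 of 7 with a peak, none at Col1a1, Col1a2, Lum and Prrx1), 105, 118 and 129 for Schwann cells and glia (7 of 7), 12.2, 11.8 and 7.76 for immune cells (1 of 5, none at Cd3e, Itgam, Ptprc and Spi1) and 19.3, 9.76 and 7.37 for endothelial cells (2 of 4, none at Cdh5 and Pecam1). The part of other cell types in the results below was not tested.

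Few of these sites carry sequence in the RefSeq promoter windows of GRCm38.p6, the assembly that mm10 names, which run from 250 bases before to 50 bases after an annotated start. Of the 733 peaks, 15 overlapped such a window and 3 had their centre, the point that the repeat name describes, inside one. These 3 windows are shown because they hold bases of the repeats themselves, and the fourth because it overlaps the 1 member among the 15 that passed the test below. Each is the plus strand, 5′ to 3′. Capitals mark matches on either strand to TGANTCA (AP-1), CACGTG or CATGTG (E-boxes) or ACAAT (SOX). Of 32851 promoter windows of 300 bases, 7.81% held TGANTCA, 7.15% CACGTG, 14.2% CATGTG and 31.0% ACAAT. A match is only a run of letters and marks no known site.
Gm13025 window, L2c, chr4:140679495-140679794: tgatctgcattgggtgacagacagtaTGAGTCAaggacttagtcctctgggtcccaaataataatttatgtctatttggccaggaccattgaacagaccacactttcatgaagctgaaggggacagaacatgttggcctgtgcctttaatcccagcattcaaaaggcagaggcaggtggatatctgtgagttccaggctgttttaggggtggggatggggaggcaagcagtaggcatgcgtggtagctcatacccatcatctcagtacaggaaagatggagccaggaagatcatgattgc
Gm39484 window, MIRb, chr11:119522923-119523222: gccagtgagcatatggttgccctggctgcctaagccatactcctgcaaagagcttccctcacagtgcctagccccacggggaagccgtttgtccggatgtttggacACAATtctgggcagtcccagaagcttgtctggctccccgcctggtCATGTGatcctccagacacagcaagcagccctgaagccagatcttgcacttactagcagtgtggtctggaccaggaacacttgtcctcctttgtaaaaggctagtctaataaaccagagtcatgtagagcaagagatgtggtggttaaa
Gm20420 window, MIR3, chr15:79313773-79314072: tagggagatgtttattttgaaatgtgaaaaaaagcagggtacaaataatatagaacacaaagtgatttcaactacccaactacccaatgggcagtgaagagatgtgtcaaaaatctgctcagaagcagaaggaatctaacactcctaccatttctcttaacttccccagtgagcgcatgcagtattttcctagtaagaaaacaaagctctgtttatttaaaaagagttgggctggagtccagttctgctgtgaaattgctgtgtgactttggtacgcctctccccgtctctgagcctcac
Gm46099 window, MIRc, chr1:87550811-87551110: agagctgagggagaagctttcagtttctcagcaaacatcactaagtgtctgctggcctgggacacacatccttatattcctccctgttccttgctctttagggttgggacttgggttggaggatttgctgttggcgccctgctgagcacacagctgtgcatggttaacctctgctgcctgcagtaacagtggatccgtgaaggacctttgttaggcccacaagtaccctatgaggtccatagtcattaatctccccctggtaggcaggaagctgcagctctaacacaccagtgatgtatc

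The peak centre falls at base 26 of the Gm13025 window, next to its TGAGTCA, at base 241 of the Gm39484 window and at base 268 of the Gm20420 window. The Gm13025 peak, in L2c, had 8.76 and 9.59 CPM (the tag count divided by the TMM-scaled library size) under hairpins I and II, against 10.3 and 10.2 in controls 1 and 2 (−0.17 on the log2 scale, SE 0.29, edgeR adjusted p = 0.771). The Gm39484 peak, in MIRb, gave −0.09 (SE 0.41, adjusted p = 0.920) and the Gm20420 peak, in MIR3, −0.36 (SE 0.19, adjusted p = 0.264). These 3 peaks did not pass the test. The Gm46099 window held none of the 4 motifs. Its peak, in intron 1 of Ngef, had 19.2 and 6.92 CPM under hairpins I and II, against 2.46 and 2.41 in controls 1 and 2, and rose (2.53 on the log2 scale, SE 0.57, edgeR adjusted p = 0.0369). Without hairpin I its value was 1.504.

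Both families held peaks far from genes' starts, with about as many in introns as between genes. MIR peaks numbered 215 in introns and 193 in intergenic DNA, and L2 peaks 157 and 168. First introns held 87 of the intronic MIR peaks and 46 of the intronic L2 peaks (40.5% and 29.3%, beside 35.4% of all intronic peaks). The nearest TSS lay at a median of 25.8 kb from MIR and 25.2 kb from L2 peaks, against 27.3 kb for intron and intergenic peaks without a repeat or CpG island name (non-repeat peaks, n = 45103). L1 peaks (n = 1473) lay at a median of 33.2 kb, and peaks of the rodent SINEs B1, B2 and B4 (n = 2677) at 15.6 kb. Only 10 of the 733 members lay within 1 kb of a TSS. The median width was 534 bp for MIR and 468 bp for L2, against 512 bp for non-repeat peaks.

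Baseline accessibility of the 2 families was close to that of non-repeat peaks. The median CPM of MIR peaks was 5.95 and 4.77 under hairpins I and II, against 5.07 in the control. For L2 peaks it was 5.61 and 5.17 under the hairpins, against 4.40 in the control. Non-repeat peaks had medians of 5.78, 5.22 and 5.13, L1 peaks 3.65, 3.46 and 3.62, and rodent SINE peaks 3.65, 3.46 and 3.39. Control levels ranged from 0.163 to 116 CPM in MIR and from 0.203 to 90.4 CPM in L2 peaks.

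The share of all tags in peaks that fell in each family was higher in both Hira libraries than in both control libraries. MIR peaks held 0.451% and 0.431% of tags under hairpins I and II, against 0.412% and 0.409% in controls 1 and 2. L2 peaks held 0.297% and 0.289% under the hairpins, against 0.273% and 0.270% in the controls. Set over the summed controls, the MIR share was 1.10 and 1.05 times as large and the L2 share 1.10 and 1.06 times. The same ratios were 1.06 and 1.02 for rodent SINE peaks, 1.02 and 1.00 for non-repeat peaks, and 0.929 and 0.912 for L1 peaks. A share of tags does not depend on how the libraries are scaled. The shares were not tested: an exact permutation of 2 Hira libraries and 1 control sample cannot go below p = 0.333.

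Under TMM scaling more members gained than lost accessibility in Hira shRNA, and under another scaling given below more lost it. In edgeR's quasi-likelihood fit to all peaks, with an adjusted p under 0.05, 59 of 408 MIR peaks rose and 21 fell (14.5% and 5.15%). Of 325 L2 peaks 48 rose and 19 fell (14.8% and 5.85%). Over all 70433 tested peaks, 7.59% were called higher and 4.9% lower. In this fit the share called higher was thus above the background in both families, and the share called lower was near it. Non-repeat peaks had 8.80% higher and 5.80% lower, rodent SINE peaks 5.75% and 3.32%, and L1 peaks 9.98% and 10.1%. Peaks are not replicates of a condition, so these differences between groups of peaks were not tested.

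These calls rested on the estimate of spread, which had 1 residual degree of freedom. With edgeR's older quasi-likelihood estimate, or without either control library, 0 peaks of the whole table were called. In those fits the smallest adjusted p was 0.0746 with the older estimate, 0.0715 without control 1 and 0.0527 without control 2. At an unadjusted p under 0.05 the older estimate had 88 MIR peaks higher and 52 lower, and 69 L2 peaks higher and 40 lower. Under library sizes recovered from the deposited fold changes, 68 MIR peaks were higher and 97 lower, and 62 L2 peaks higher and 86 lower. Over all peaks that scaling gave 9.81% higher and 18.5% lower and moved the median log2 fold change of all peaks to −0.29. Fold changes below use TMM scaling, under which that median was 0.0027.

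Counting peaks that lay at least 2-fold from the control under both hairpins, with no test, gave similar shares. Both hairpins were at least 2-fold higher at 59 MIR peaks (14.5%) and 53 L2 peaks (16.3%), beside 8.27% of all peaks. Both were at least 2-fold lower at 23 MIR peaks (5.64%) and 21 L2 peaks (6.46%), beside 5.89% of all peaks. Of non-repeat peaks, which like the members lie in introns or between genes, 9.51% were higher and 6.91% lower by this count. The 2 ratios share the controls. Taken singly, hairpin I was at least 2-fold higher at 91 MIR and 78 L2 peaks (22.3% and 24%), beside 14.1% of all peaks, and hairpin II at 63 and 56 (15.4% and 17.2%), beside 8.98%. Hairpin I was at least 2-fold lower at 60 MIR and 70 L2 peaks (14.7% and 21.5%), beside 13.4% of all peaks, and hairpin II at 44 and 29 (10.8% and 8.92%), beside 8.48%. For non-repeat peaks these single shares were 16.1% higher and 15.8% lower under hairpin I, and 10.3% and 9.82% under hairpin II. The authors' deposited table calls 60 MIR peaks higher and 66 lower (14.7% and 16.2%), and 53 L2 peaks higher and 52 lower (16.3% and 16.0%). Over all peaks that table calls 8.48% higher and 11.8% lower. Of the members that rose here, it also calls 49 of 59 MIR and 43 of 48 L2 peaks higher, and of those that fell, all 21 MIR and all 19 L2 peaks lower.

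**Figure D1:**
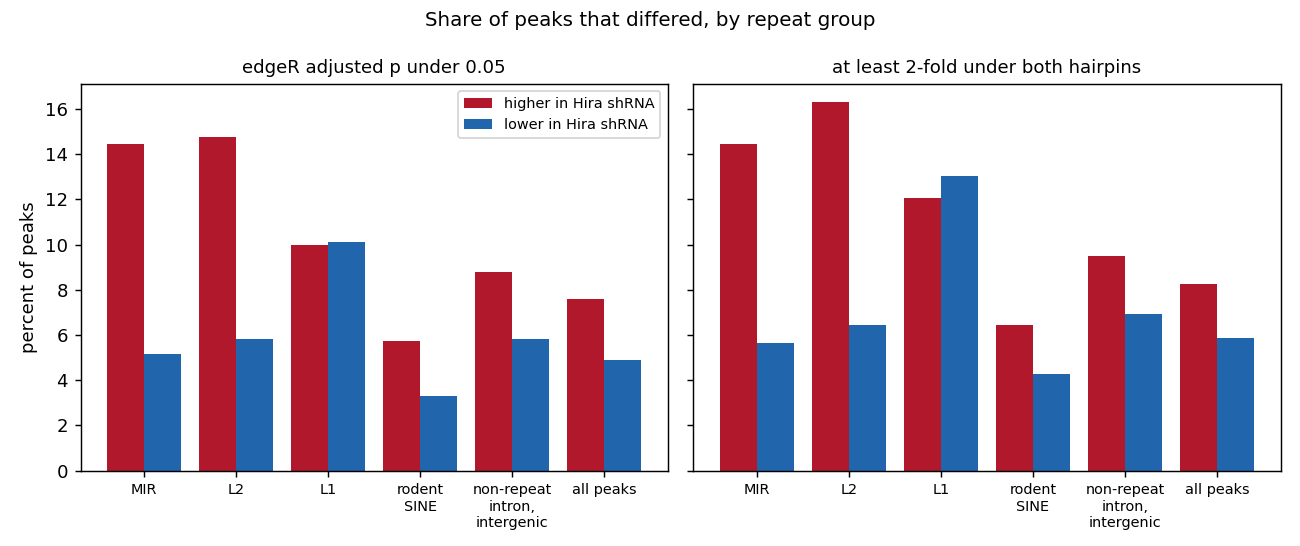
Percent of peaks (vertical axis) that were higher (red) or lower (blue) in Hira shRNA than in control, for MIR, L2 and comparison groups of peaks, by the edgeR call (left) and by at least 2-fold under both hairpins (right). The red bars of MIR and L2 stand at 14.5% and 14.8% on the left, beside 7.59% for all peaks, while their blue bars stand at 5.15% and 5.85%, beside 4.9%.

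The centre of each family's fold changes stayed near that of all peaks, while their spread was wider. The median log2 fold change was 0.11 for MIR and 0.01 for L2 peaks, against 0.01 for all intron and intergenic peaks. The SD over peaks was 1.17 for MIR and 1.18 for L2, against 1.01 for all intron and intergenic peaks. L1 peaks had a median of −0.17 and an SD of 1.22, and rodent SINE peaks 0.02 and 0.82. The median MIR value was 0.10 for hairpin I and 0.01 for hairpin II, and the median L2 value −0.01 and −0.0033.

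**Figure D2:**
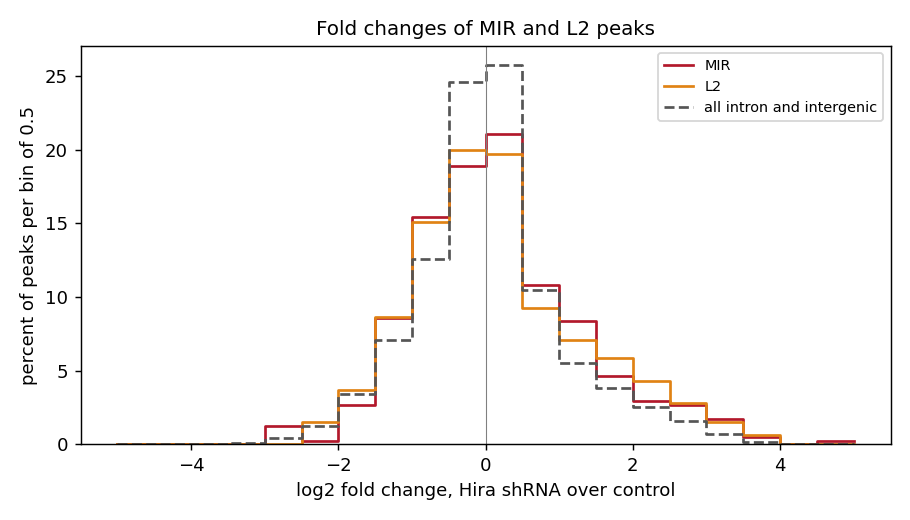
Log2 fold change of Hira shRNA over control (horizontal axis) and percent of peaks in each bin of 0.5 (vertical axis) for MIR peaks (red), L2 peaks (orange) and all intron and intergenic peaks (dashed grey). Both families have fewer peaks between −0.5 and 0.5 and more peaks above 1 than the dashed line, with SDs of 1.17 and 1.18 against 1.01.

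Under TMM scaling every subfamily had more peaks higher than lower, while under the sizes recovered from the deposited fold changes both families as a whole had more lower than higher. Among MIR subfamilies, 19 of 111 MIR peaks rose and 7 fell, 19 and 8 of 157 in MIRb, 12 and 3 of 78 in MIRc, and 9 and 3 of 62 in MIR3. Among L2 subfamilies, 20 of 117 L2a peaks rose and 7 fell, 14 and 6 of 88 in L2, 8 and 5 of 75 in L2b, and 6 and 1 of 45 in L2c. The share called higher ranged from 10.7% in L2b to 17.1% in MIR and L2a. Beside it stood 8.72% of all intron and intergenic peaks and 7.59% of all peaks. All 8 subfamilies lay above both, L2b by few peaks, with 8 of 75.

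Calls were also counted by position. Of intronic MIR peaks 12.6% rose and 5.58% fell, and of intergenic ones 16.6% and 4.66%. For L2 the shares were 14.6% and 7.01% in introns, and 14.9% and 4.76% in intergenic DNA. Of all intronic peaks 8.58% rose and 6.13% fell, and of all intergenic peaks 8.86% and 5.37%. Between 1 and 10 kb from a TSS, 23 of 109 MIR peaks rose and 4 fell, and 12 of 79 L2 peaks rose and 10 fell, beside 8.53% and 4.66% of all intron and intergenic peaks at that distance. Between 10 and 100 kb 29 of 221 MIR and 27 of 199 L2 peaks rose (13.1% and 13.6%), beside 9.05%. At that distance 6.33% of MIR and 3.02% of L2 peaks fell, beside 5.98%. Beyond 100 kb 7 of 72 MIR and 9 of 43 L2 peaks rose (9.72% and 20.9%), beside 9.53%, and 4.17% and 6.98% fell, beside 7.81%. Of all intron and intergenic peaks within 1 kb of a TSS, 1.66% rose and 0.394% fell. None of the 10 members at that distance was called, a group too small to give a share. It included the strongest MIR peak of all, described below.

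**Figure D3:**
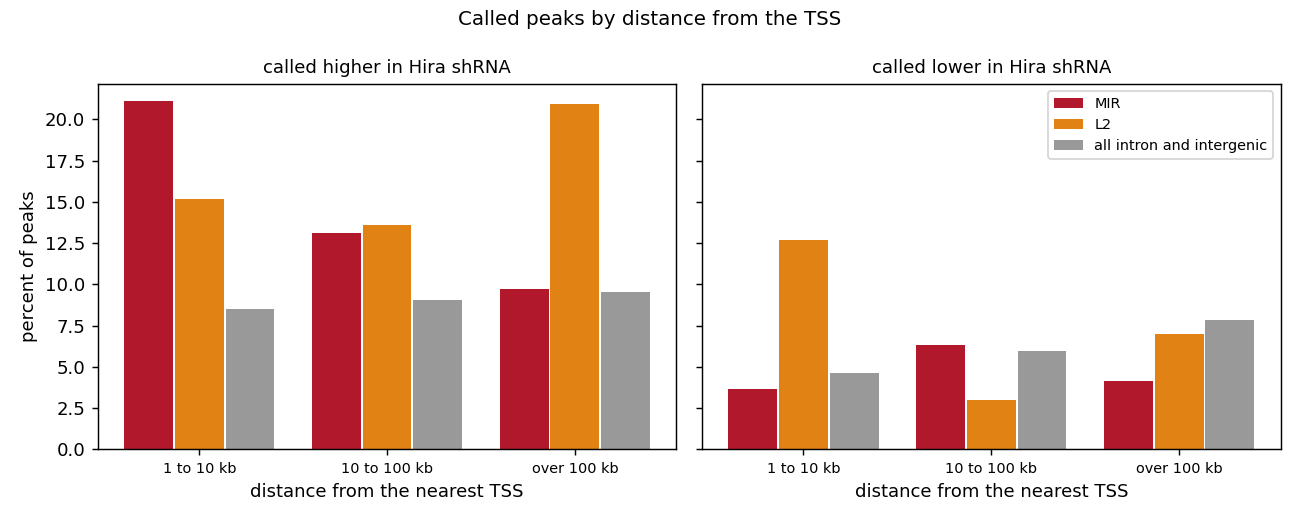
Percent of peaks called higher (left) and lower (right) in Hira shRNA (vertical axis) by distance from the nearest TSS (horizontal axis), for MIR (red), L2 (orange) and all intron and intergenic peaks (grey). On the left the MIR bars stand at 21.1%, 13.1% and 9.72% and the L2 bars at 15.2%, 13.6% and 20.9%, beside 8.53%, 9.05% and 9.53% for the grey bars.

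Called members spanned a wide range of sizes. The log2 fold change of called MIR peaks ran from 0.64 to 4.77 among those that rose, and of called L2 peaks from 0.86 to 3.63. The median rising MIR peak had 13.0 and 7.66 CPM under hairpins I and II, against 2.25 in the control, and the median rising L2 peak 10.4 and 6.33, against 2.09. The median falling MIR peak had 2.00 and 1.99 CPM under the hairpins, against 6.81 in the control, and the median falling L2 peak 1.29 and 1.48, against 5.09. Hairpin I lay further from the control than hairpin II at 54 of 59 rising MIR peaks and 41 of 48 rising L2 peaks, and at 16 of 21 and 16 of 19 falling ones. The same count over all called peaks was not made. By another measure, more change under hairpin I was not particular to the 2 families. Of all peaks in the table, called or not, 14.1% were at least 2-fold higher and 13.4% lower under hairpin I, against 8.98% and 8.48% under hairpin II.

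The 6 rising MIR peaks that met the naming rule lay nearest to Ext1, Usp54, Fchsd1, Sfxn5, Edn2 and Ngef. The rule required a level above the family's median, and both Hira libraries beyond both control libraries, for rising and falling peaks of either family. All called members met the second condition, so it removed none. Values below are CPM with the Hira mean ± SD (n = 2) and the control as 1 sample, and genes are the nearest by TSS in the deposited annotation, which need not be the gene a site acts on. Ext1 encodes a polymerase of heparan sulfate chains, and a MIRc peak in its intron 1 (chr15:53170996-53171744) had 14.8 and 8.46 CPM under hairpins I and II, against 1.48 and 1.35 in controls 1 and 2. It rose by a log2 fold change of 3.08 (SE 0.48, edgeR adjusted p = 0.0317). A MIRb peak in intron 1 of Usp54, a gene of the ubiquitin-specific peptidase family (chr14:20609452-20610434), had 24.3 and 6.92 CPM under the hairpins, against 2.32 and 1.63 in the controls (3.06, SE 0.68, adjusted p = 0.0358). The hairpins lay far apart there, and without hairpin I the value was 1.77.

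A MIRc peak in intron 2 of Sfxn5, which encodes a mitochondrial carrier of the sideroflexin family (chr6:85316098-85316759), had 21.5 and 5.45 CPM under hairpins I and II, against 2.17 and 1.66 in the controls (2.92, SE 0.71, adjusted p = 0.0423). Without hairpin I its value was 1.48. A MIR peak in intron 7 of Hivep3, whose nearest TSS is that of Edn2, the gene of the peptide ligand endothelin 2 (chr4:120131061-120131957), averaged 18.8 ± 7.99 CPM in Hira shRNA and 3.35 in the control (2.54, SE 0.42, adjusted p = 0.0317). A MIR peak in intron 11 of Fchsd1, a gene of a membrane-bending adaptor (chr18:37964425-37964718), averaged 8.39 ± 4.16 CPM in Hira shRNA and 1.17 in the control (2.94, SE 0.55, adjusted p = 0.0317; 2.22 without hairpin I). The Ngef peak described above belongs to the same group, and Ngef encodes the exchange factor ephexin.

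Falling MIR peaks included a second site assigned to Ext1. This MIRb peak, intergenic and 99.3 kb from the TSS (chr15:53445159-53445758), had 3.99 and 9.76 CPM under hairpins I and II, against 21.9 and 23.2 in controls 1 and 2. It fell by 1.84 on the log2 scale (SE 0.39, adjusted p = 0.0342), so that 2 MIR sites nearest to the same gene went in opposite directions. Leaving out hairpin I gave −1.20 there, and leaving out hairpin II −2.49. A MIRb peak in intron 7 of Inpp4b, a phosphoinositide phosphatase gene (chr8:81787621-81788054), averaged 3.58 ± 1.52 CPM in Hira shRNA and 11.9 in the control (−1.83, SE 0.39, adjusted p = 0.0343). A MIRc peak 8.53 kb from Rims3, a gene of synaptic vesicle release (chr4:120845876-120846661), averaged 3.63 ± 0.402 CPM in Hira shRNA and 11.9 in the control (−1.71, SE 0.34, adjusted p = 0.0323). The peaks at Cmtr1, an mRNA cap methyltransferase gene, Snx29, a sorting nexin gene, and Abca4, a transporter gene known from the retina, fell by 1.60, 1.24 and 0.99 (adjusted p = 0.0460, 0.0444 and 0.0493). The Cmtr1 peak lay in intron 7 of Gm28043, 14.5 kb from the Cmtr1 TSS. There hairpin II alone gave −0.93 and hairpin I alone −2.35. In the DESeq2 Wald test none of these 6 falling MIR peaks was called, with values from −1.75 to −0.98.

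The 6 rising L2 peaks that met the naming rule lay nearest to Siglecg, Atp13a3, Sspn, Tmem222, Tgfbr1 and Cd248. An L2 peak 2.16 kb from Atp13a3, a gene of a transport ATPase (chr16:30390331-30391056), had 31.8 and 19.4 CPM under hairpins I and II, against 4.39 and 4.23 in controls 1 and 2 (2.61, SE 0.36, adjusted p = 0.0317). An L2a peak 25.6 kb from Sspn, which encodes sarcospan of the dystrophin complex (chr6:145905971-145906636), had 24.9 and 14.2 CPM under the hairpins, against 3.61 and 2.97 in the controls (2.60, SE 0.40, adjusted p = 0.0317). At both sites hairpin I had the higher level of the hairpins. An L2b peak in intron 28 of Col15a1, a collagen gene, lay nearest to the TSS of Tgfbr1, which encodes the type I TGF-beta receptor (chr4:47293603-47294558). It averaged 8.85 ± 3.93 CPM in Hira shRNA and 2.02 in the control (2.21, SE 0.48, adjusted p = 0.0345; 1.59 without hairpin I).

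An L2 peak 2.82 kb from Cd248, a surface glycoprotein gene of pericytes and fibroblasts (chr19:5065093-5065424), averaged 7.40 ± 1.96 CPM in Hira shRNA and 1.67 in the control (2.19, SE 0.44, adjusted p = 0.0322). An L2c peak in intron 12 of Wdtc1, nearest to the TSS of Tmem222 (chr4:133298739-133299406), averaged 12.6 ± 1.62 CPM in Hira shRNA and 2.37 in the control (2.42, SE 0.36, adjusted p = 0.0317). An L2 peak 8.44 kb from Siglecg, a gene of a sialic acid receptor of immune cells (chr7:43399540-43400140), averaged 7.47 ± 4.55 CPM in Hira shRNA and 1.00 in the control (3.01, SE 0.62, adjusted p = 0.0326; 2.10 without hairpin I). Cd248 and Siglecg mark fibroblast-like and immune cells, whose marker lists had the summed levels given at the outset. No marker peak of those 2 lists was called higher or lower, while 1 of the melanocyte lineage and 1 of Schwann cells and glia were called lower. A part of fibroblast-like or immune cells in these rises was not tested.

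Only 4 falling L2 peaks met the rule for named sites. An L2a peak 114 kb from Cep135, a centriole gene (chr5:76702002-76702619), had 6.19 and 11.8 CPM under hairpins I and II, against 24.9 and 24.7 in controls 1 and 2 (−1.55, SE 0.33, adjusted p = 0.0341). An L2a peak 3.63 kb from Coq8a, a gene of coenzyme Q synthesis (chr1:180199436-180199857), averaged 12.0 ± 3.96 CPM in Hira shRNA and 29.9 in the control (−1.38, SE 0.28, adjusted p = 0.0325). The peaks at Appl2, an endosomal adaptor gene, and Ddah1, a gene of methylarginine breakdown, fell by 1.16 and 0.93 (adjusted p = 0.0361 and 0.0431). Both lay 6 to 7 kb from the assigned TSS, the Appl2 peak in L2 and the Ddah1 peak in L2a. None of these 4 was called in the DESeq2 Wald test, with values from −1.48 to −0.92.

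The 3 members of each family with the highest control level did not pass the test. Other strong members did: in the highest quartile of mean CPM 11 of 62 MIR and 9 of 47 L2 peaks rose. These are 17.7% and 19.1%, beside 7.48% of all intron and intergenic peaks in that quartile and 4.56% of all peaks there. In that quartile 1.61% of MIR and 8.51% of L2 peaks fell, beside 2.50% and 1.49%. The strongest MIR peak, in the only intron of Chst12, a chondroitin sulfotransferase gene, and 281 bp from its TSS, had 103 and 107 CPM under hairpins I and II, against 119 and 113 in controls 1 and 2 (−0.15, SE 0.12, adjusted p = 0.473). A MIR peak 48.1 kb from Atf7ip, which encodes a partner of the H3K9 methyltransferase SETDB1, had 101 and 98.4 CPM under the hairpins, against 102 and 101 in the controls (−0.02, SE 0.12, adjusted p = 0.931). A MIR3 peak assigned to Opa1, a gene of mitochondrial fusion, had 43.1 and 68.4 CPM, against 82.7 and 82.6 (−0.60, SE 0.24, adjusted p = 0.146). Of the strongest L2 peaks, the one in intron 1 of Syngr1, a synaptic vesicle gene, had 112 and 115 CPM under the hairpins, against 89.7 and 91.2 in the controls (0.33, SE 0.12, adjusted p = 0.118). The L2 peak in intron 1 of Uck2, a pyrimidine salvage gene, gave 0.23 (SE 0.15, adjusted p = 0.351), and the L2b peak 9.16 kb from Adcy6, an adenylyl cyclase gene, 0.53 (SE 0.17, adjusted p = 0.0826). With the control libraries kept as 2, the Syngr1 and Adcy6 peaks were called higher.

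**Figure D4:**
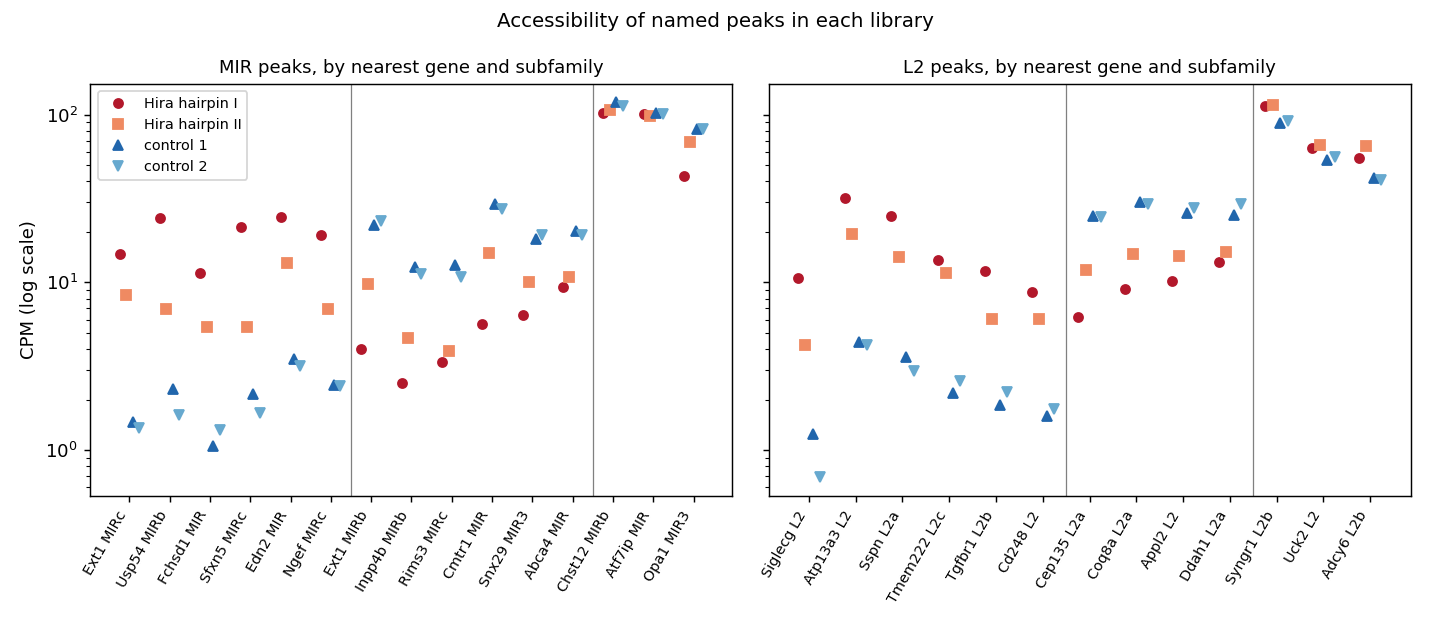
CPM on a log scale (vertical axis) of the named MIR peaks (left) and L2 peaks (right) in hairpin I, hairpin II, control 1 and control 2, each point 1 library, with vertical lines between the peaks that rose, those that fell and the 3 most accessible in the control. In the first 2 sections all Hira points lie on one side of all control points, as the naming rule requires, while the Chst12 peak stands between 103 and 119 in all libraries.

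At 3 genes there were 3 members each, and at Fbln2, which encodes the matrix protein fibulin-2, 2 of the 3 rose. Its MIR3 peak (chr6:91259769-91260899) had 18.3 and 12.0 CPM under hairpins I and II, against 5.78 and 5.04 in controls 1 and 2 (1.51, SE 0.34, adjusted p = 0.0361). Its L2b peak (chr6:91192542-91193327) had 32.5 and 26.6 CPM, against 17.1 and 15.7 (0.86, SE 0.22, adjusted p = 0.0485). The third Fbln2 peak, in MIRb, gave 0.70 (SE 0.38, adjusted p = 0.279). At Pcdh7, a protocadherin gene, a MIR3 peak fell (2.00 and 2.33 CPM under the hairpins, against 6.90 and 6.70 in the controls; −1.65, SE 0.39, adjusted p = 0.0389), and the other 2 did not pass. At Tgfbr1 only the L2b peak given above passed. These 3 genes were picked for their number of members after the values were seen.

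No MIR peak was nearest to any of 30 listed pigment genes or 28 genes of melanoblast specification, and 5 L2 peaks were. L2 peaks made up 2 of 160 peaks of the pigment list and 3 of 282 of the melanoblast list (1.25% and 1.06%), beside 0.461% of all peaks in L2 and 0.579% in MIR. None of the 5 passed. Over all peaks of those genes, 7 rose and 18 fell of 160 for the pigment list. For the melanoblast list 22 rose and 21 fell of 282, where 7.59% of all peaks rose and 4.9% fell. The L2a peak 6.31 kb from Myo5a, the motor that carries melanosomes, had 10.5 and 8.91 CPM under hairpins I and II, against 16.3 and 15.5 in the controls (−0.69, SE 0.27, adjusted p = 0.136). The L2a peak in an intron of the kinase gene Braf had 3.11 and 4.03 CPM, against 1.41 and 1.41 (1.31, SE 0.42, adjusted p = 0.0815). Peaks at Lyst, a gene of lysosome-related organelles, Met, a growth factor receptor gene, and Zeb2, a transcription factor gene, gave 0.01, 0.14 and −0.45.

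Of genes of the neural crest and of epithelial to mesenchymal transition, 3 had an L2 peak and none a MIR peak. The peak nearest to Ngfr, the p75 neurotrophin receptor gene, lay 30.2 kb from its TSS and gave 0.07. That assigned to Twist1 lay in intron 19 of Hdac9, 267 kb from the Twist1 TSS, and gave −0.08. Zeb2, listed there too, had its peak at 61.7 kb (−0.45), and none of the 3 passed. Among 40 genes of the extracellular matrix and migration, 1 had a MIR peak and 2 an L2 peak. The MIRb peak 58.9 kb from Col5a1, a fibrillar collagen gene (chr2:27827034-27828117), had 15.6 and 11.5 CPM under hairpins I and II, against 3.34 and 3.41 in the controls, and rose (2.03, SE 0.35, adjusted p = 0.0317). Itga1 and Lama4 had L2 peaks with −0.85 and −0.19, neither of which passed. Over all peaks of that list 48 rose and 17 fell of 311, beside 7.59% and 4.9% of all peaks in the table. None of 10 genes of the HIRA complex and of H3.3 had a peak in either family.

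The nearest peak outside both families was looked up within 10 kb of each member. Of 41 rising MIR peaks that had one, it rose at 7 (17.1%) and fell at 1, beside 7.59% and 4.9% of all peaks. Of 221 MIR peaks that were not called and had such a neighbour, it rose at 24 (10.9%) and fell at 10. Among 32 rising L2 peaks with a neighbour it rose at 4 (12.5%) and fell at 0, and among 168 that were not called it rose at 8 (4.76%) and fell at 14. These shares rest on few peaks and were not tested. Falling members had few neighbours, 10 for MIR and 12 for L2, of which 0 and 2 rose and 1 and 0 fell. Members rarely lay together: 7 pairs stood within 10 kb of each other, 3 of them a MIR and an L2 peak. At Bcl11a, a transcriptional repressor gene, an L2b and a MIR peak 8.50 kb apart gave −1.50 and −1.03 (adjusted p = 0.0597 and 0.0897).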

How the data were processed

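Accessibility was measured in 4 melb-a libraries built with a commercial kit, per the labels' protocols. Tools named in the submitters' processing notes, without roles, are edgeR 3.38.4, MACS2 2.2.9.1, Picard, Bowtie2 and cutadapt 2.3, with the build mm10. The sources used here do not give how peaks were merged or how duplicates and reads that map to several repeat copies were handled. Tags per peak are estimated counts as deposited, in steps of 0.5. They were rounded for count tests. Per the file headers, each peak further has a log2 fold change, a mean log2 CPM, p-values raw and adjusted, and a score, the statistic of a likelihood ratio test, all deposited by the authors. Coordinates are as deposited. Each column's name gave its sample, and for Hira the numeral gave the hairpin.

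The test was edgeR 4.0.16 (R 4.3.3), quasi-likelihood with the estimate that needs no prior dispersion, TMM factors and filterByExpr, on 3 samples: each Hira library and the summed controls. It was fitted to all peaks, with Benjamini-Hochberg adjustment over them and p under 0.05. SEs are the log2 fold change over the root of F. The control sample is assumed to vary like the Hira pair. Ratios per hairpin used a prior of 2 tags. The fit was tested on simulated data. The families, lists, test and rule were chosen with earlier results of these data known. Named sites were, per family, up to 6 called peaks per direction with the largest fold change (above the family's median level, both hairpins beyond both controls, named genes), the 3 highest in the control, and called peaks of listed genes. Alternatives were older estimates, a likelihood ratio test, DESeq2 1.42.0, other scalings and filters, and each library left out. Library sizes behind the authors' fold changes were recovered by least squares (residual SD 0.0142 log2). Only promoter windows gave sequence, from RefSeq tables. The drawing used matplotlib 3.10.9.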

Additional observations from a re-analysis of the deposited data

How the results depend on the processing

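Counts of called peaks depended on how the spread was estimated. With the control libraries kept as 2, 103 MIR peaks were higher and 81 lower, and 79 L2 peaks higher and 62 lower. With the older quasi-likelihood estimate on those 4 libraries the counts were 96, 65, 72 and 47. That estimate with the controls as 1 sample called 0 in each family and direction, where the unadjusted counts were those given in the report. Leaving out either control gave 0 to 0 called (91 MIR peaks higher and 70 lower, and 70 L2 peaks higher and 50 lower, at an unadjusted p under 0.05 without control 1; 93, 72, 76 and 61 without control 2). The DESeq2 Wald test called 25 MIR peaks higher and 1 lower, and 23 L2 peaks higher and 0 lower, with 15 L2 peaks lower at an unadjusted p under 0.05. The sizes recovered from the deposited fold changes gave 97 MIR and 86 L2 peaks lower. In the fits that called peaks, 6.13% to 26.96% of MIR and 7.08% to 26.2% of L2 peaks were higher, each above the share of all peaks in the same fit (3.04% to 17.1%). Whether the share called lower also stood above that of all peaks depended on the fit. With the controls as 2 libraries it was 19.85% for MIR and 19.1% for L2, beside 14.2% of all peaks. Under the recovered sizes it was 23.8% and 26.5%, beside 18.5%. In the DESeq2 Wald test it was 0.245% and 0%, beside 0.301%.

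The median log2 fold change moved to −0.20 for MIR and −0.29 for L2 under the recovered sizes, and to −0.0085 for L2 under total tags. With each library left out it ranged from 0.0141 to 0.126 for MIR and from −0.00829 to 0.0249 for L2. At least 1.5-fold under both hairpins were 24.02% of MIR and 22.2% of L2 peaks upward, and 17.6% and 16.6% downward. At least 4-fold were 2.45% and 3.69% upward, and 0.735% and 0% downward. Under the recovered sizes the 2-fold shares were 11.03% and 12.6% upward, and 11.5% and 10.8% downward. No called named peak changed its sign, while the Uck2 value, which was not called, turned to −0.054 under the recovered sizes. The falls at Snx29, Abca4 and Ddah1 were not called by the likelihood ratio test (−1.19, −0.98 and −0.91), nor that at Abca4 under total tags (−1.01). With a hairpin left out, 1 Hira library stands against 1 control sample, so that only fold changes were computed. The column names number the libraries of each group, while the treatment labels pair none of them. Deviations from the group means did not go together by that number (r = −0.009 across 70436 peaks, which are not independent replicates). A fit added after the data were seen, with the controls as 2 libraries and that number as a replicate block, called 110 MIR peaks higher and 80 lower, and 85 L2 peaks higher and 67 lower.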
